A study of Homo sapiens with 7 samples.

Results

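The 8 enzymes described here, ENO1, GAPDH, TPI1, LDHA, PGK1, PKM, ALDOA and PGAM1, act in glycolysis from aldolase to pyruvate kinase, or, for LDHA, on its product pyruvate, and each of their genes held at least 1 listed contact site of the translation initiation factor subunit eIF3a. The members are the entries of the eIF3a list that overlap a fixed hg19 span of each gene on the gene's strand. These were 20 of 4013 entries, or 15 separate sites out of 3566 on the primary chromosomes, since several entries can describe the same site. A site here is a cluster of overlapping sequencing reads, its summit is the highest number of reads over any base, and its reads are all the reads of the cluster. The 15 sites held 435 of the 38419 reads in listed sites, which is 1.13% of the reads in 0.421% of the sites.

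The data came from PAR-iCLIP of eIF3a in HEK293T cells, which derive from human embryonic kidney, with 2 replicates. Cells took up 4-thiouridine (100 mM, as the labels give it) for 8 h and were irradiated at 354 nm, which joins proteins to the labelled uridines, and the joined RNA was recovered with an antibody against eIF3a. The labels name no further treatment of these cells and no input library. The series also holds 5 m6A libraries from HEK293T and HepG2, which were not analysed here. Whether the deposited list holds reads of both replicates is unknown, and no entry names a replicate, so no value has a replicate error and there were no groups to test.

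Glycolysis turns glucose into pyruvate and yields ATP, and its enzymes are made in large amounts by growing cells. eIF3 is the multi-subunit complex that brings the small ribosomal subunit to an mRNA, and eIF3a is its largest subunit. Contact of eIF3 with an mRNA is often looked for near the 5' end, where initiation starts. The list holds no measure of how much of each mRNA was present, so a gene with many reads because its mRNA is abundant and one with many reads because eIF3a touches each copy more often cannot be told apart.

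Sites lay nearest to the 5' end of the gene span in ENO1 and PGK1, so the starts of these 2 genes are shown. The runs below are from RefSeq on GRCh38.p14, ENO1 at chr1:8878667-8878696 on the minus strand and PGK1 at chrX:78104238-78104267 on the plus strand, each written 5' to 3'. Capitals mark the 20 bases from the annotated start and lower case the 10 bases before it. They show the kind of sequence at these starts and were not placed on the hg19 sites, because no hg19 sequence was used here.
ENO1: cggcgcggacAGTATCTGTGGGTACCCGGA
PGK1: cccgcgcggtGTTCCGCATTCTGCAAGCCT
Uridine is the base that 4-thiouridine replaces. The first 50 bases from the start held 12 T in ENO1 and 10 T in PGK1, with a GC content of 58% and 68%. Both lay within the range of the 12 RefSeq start windows of the 8 genes. There T ran from 5 (ALDOA) to 15 (PGAM1) and GC content from 46% (PGAM1) to 80% (TPI1). The T content of all start windows was not counted. The letters GGAC, a frequent core of m6A sites, were searched on both strands of the first 50 bases in all 12 windows. They were present on the transcript strand in 0 of the 12 windows and on the other strand in 2, against 18.9% and 17.6% of the 35116 start windows in the table. Just outside the searched window, the 4 bases before the annotated ENO1 start, printed above in lower case, read ggac. A missing match says only that these letters are not in that window.

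All 8 genes were represented, with 1 to 3 sites each. GAPDH and ALDOA had 3 sites, ENO1, LDHA and PKM had 2, and TPI1, PGK1 and PGAM1 had 1. The opposite strand of the 8 spans held 0 sites, and 0 further sites lay within 10 kb outside any span. The nearest neighbour of any span was 16.0 kb to the left of TPI1. How often the spans of other genes hold such sites was not counted, so these counts of 0 are a description and not a result about strand.

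**Figure D1:**
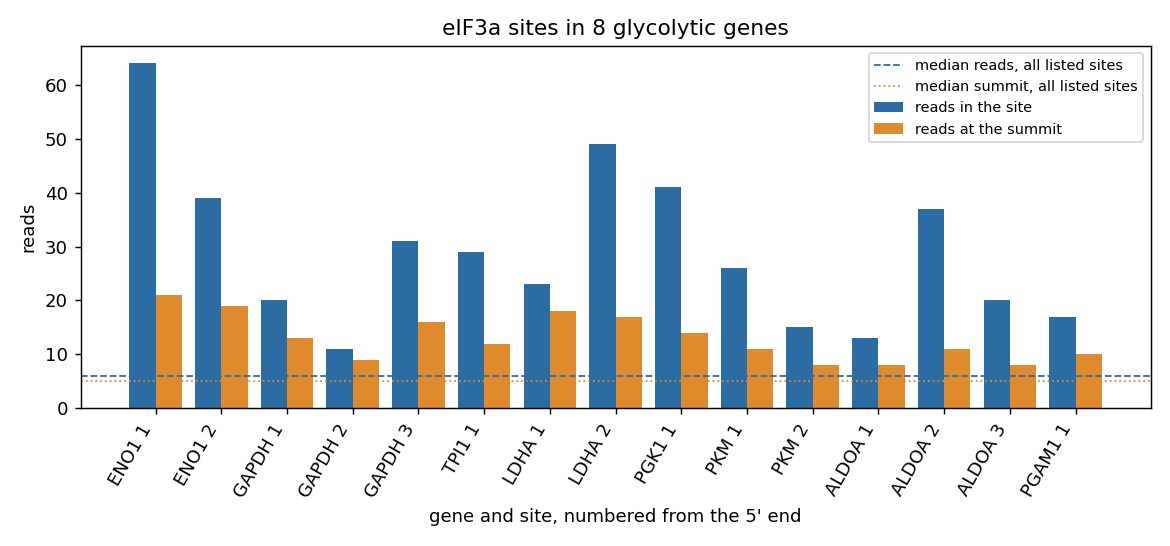
Reads in each of the 15 sites (blue bars) and reads at its summit (orange bars), with sites numbered from the 5' end of each gene. All bars stand above the median of all listed sites on primary chromosomes, 6 reads (dashed line) and 5 at the summit (dotted line), and the first site of ENO1 is the highest with 64 reads.

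The sites of these genes were large ones for this list. They held a median of 26 reads, with quartiles of 18.5 and 38, and the 3551 other primary sites held a median of 6 with quartiles of 4 and 12. The summit had a median of 12 reads in the glycolytic sites and of 5 in the others. The cluster had a median length of 112 nt in the glycolytic sites and of 61 nt in the others, and reads were also denser, at a median of 22.6 against 10.7 reads per 100 nt of cluster. At or above the list's upper quartile of 12 reads stood 14 of the 15 sites, where 25.8% of all primary sites do. The exception was the second site of GAPDH, with 11 reads. All 15 had a summit at or above the upper quartile of 7, where 28% of all sites do. At or above the 90th percentile of 23 reads stood 9 of the 15, where 10.4% of all sites do. The genes were chosen with earlier results of these data known, so these counts describe them and are not a test.

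**Figure D2:**
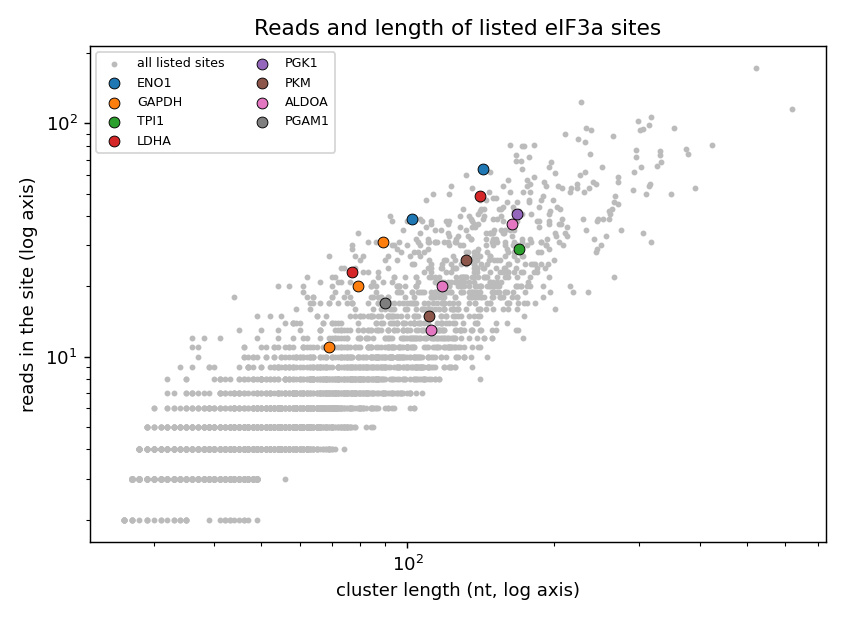
Reads in a site against the length of its cluster, both on log axes, for all listed sites on primary chromosomes (grey) and for the 15 sites of the 8 genes (coloured by gene). The ENO1 sites lie along the upper edge of the cloud, and the first ALDOA site, with 13 reads over 112 nt, is the least dense of the 15.

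By gene, ENO1 held 103 reads (exact 95% Poisson interval 84.1 to 125, counting error only), LDHA 72 (56.3 to 90.7), ALDOA 70 (54.6 to 88.4) and GAPDH 62 (47.5 to 79.5). PGK1 and PKM held 41 each (29.4 to 55.6), TPI1 29 (19.4 to 41.6) and PGAM1 17 (9.90 to 27.2). The intervals of neighbours in this order overlapped, which by itself does not show that adjacent genes are alike, and differences between genes were not tested. In these sites no read start held more than 1 read, so Poisson intervals are only a rough guide. The interval of ENO1 did not overlap that of GAPDH or of any gene below it. That is a description and not a test, since the genes were chosen with earlier results known. They also differ in the number and length of their sites. In reads per 100 nt of cluster ENO1 again came first with 42.0, followed by LDHA with 33.0, GAPDH with 26.2 and PGK1 with 24.4. PGAM1 had 18.9, ALDOA 17.8, TPI1 17.1 and PKM 16.9. By total reads the genes nearest to ENO1 were LDHA and ALDOA, lower by 31 and 33 reads.

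Sites lay either near the 5' end of the span or well beyond it. The 5' edge of the listed interval lay within the first 500 nt of the span in 8 of 15 sites and more than 2000 nt from its 5' end in the other 7. In 6 of the 8 genes the first site began within 200 nt of the span's 5' end: 11 nt in ENO1, 56 nt in PGK1, 88 nt in GAPDH, 127 nt in PGAM1, 158 nt in PKM and 178 nt in LDHA. TPI1 followed at 493 nt, and ALDOA stood apart with its first site at 11324 nt. How often the sites of other genes lie this near the 5' end was not counted, so these counts only describe the 8 genes. The spans are rounded outlines of the genes and genomic distances include introns, so these are not distances along the mRNA. RefSeq also gives alternative start windows for ALDOA, TPI1 and LDHA, and the start in use was not determined. Whether the ALDOA sites lie far from the 5' end of the mRNA is therefore unknown. Exons, untranslated regions and start codons were not assigned, because no hg19 annotation was used here.

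**Figure D3:**
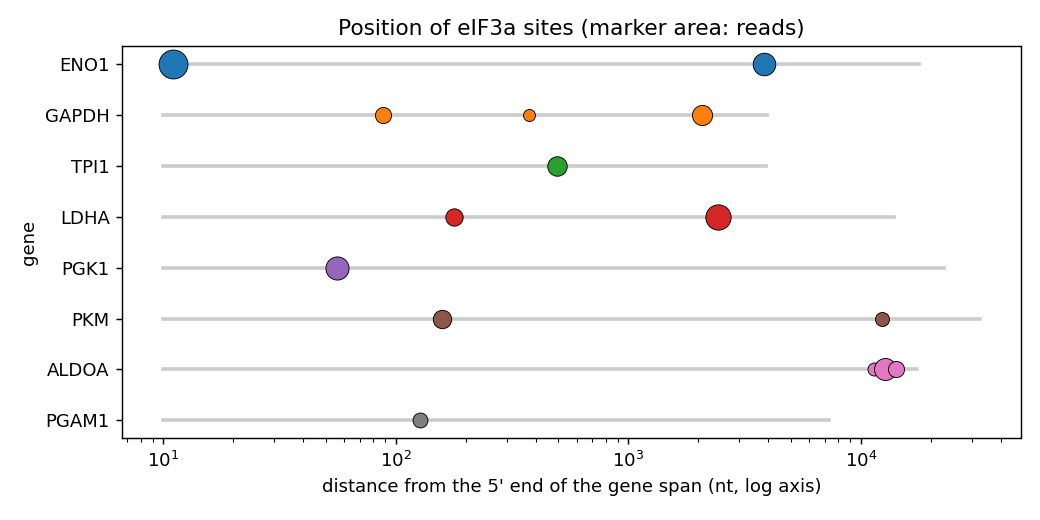
Distance from the 5' end of each gene span to the 5' edge of each listed site, on a log axis, with marker area in proportion to reads and grey lines for the spans. The first sites of 6 genes lie below 200 nt, the only TPI1 site lies at 493 nt, and the 3 ALDOA sites lie between 11324 and 14155 nt.

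ALDOA encodes aldolase A, which splits fructose bisphosphate into a pair of triose phosphates, and its gene has several alternative first exons. Its 3 sites were chr16:30075724-30075834, chr16:30077079-30077241 and chr16:30078555-30078575, plus strand. They held 13, 37 and 20 reads with summits of 8, 11 and 8. The middle site thus carried the most reads. The last site was at 81.6% of the span's length, the farthest of any gene by that measure. The middle site was listed in full over a cluster of 164 nt, with a broad profile that peaked 112 nt from its 5' end and had a lower peak of 7 reads at 25 nt. ALDOA had the least dense site of the group, the first, with 11.6 reads per 100 nt.

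TPI1 encodes triose phosphate isomerase, which interconverts the triose phosphates. Its only site, chr12:6976693-6976730 (plus strand), contained 29 reads with a summit of 12. Only 38 nt of a 170-nt cluster, the longest of the group, were listed. The profile had a peak of 12 reads at 48 nt and a lower one of 7 at 146 nt, with coverage down to 1 read at 77 nt between them. The cluster was held together there by a single read.

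GAPDH encodes glyceraldehyde phosphate dehydrogenase, the oxidative step of the pathway. Its sites were chr12:6643668-6643745, chr12:6643955-6643998 and chr12:6645660-6645742, plus strand. They held 20, 11 and 31 reads, with summits of 13, 9 and 16. The most 3' of them was thus the largest, and it had a peak of 16 reads at 30 nt and another of 13 at 66 nt, separated by a dip to 7. The first site was listed in full and had 1 peak, at 37 nt of its 79-nt cluster, 124 nt from the 5' end of the span. RefSeq names 65 pseudogenes for GAPDH, more than for the other 7 genes together (36). Whether they affected the placement of reads was not tested.

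PGK1 encodes phosphoglycerate kinase, the first ATP-yielding step. Its only site, chrX:77359716-77359837 (plus strand), contained 41 reads, more than 96.7% of all primary sites. The profile rose to 14 reads at 41 to 50 nt of the 168-nt cluster, and after a dip to 5 at 68 nt a lower peak of 8 stood at 74 nt. The listed interval covered 73.2% of the cluster. Although the span is 22671 nt long, no other part of it was listed.

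PGAM1 encodes phosphoglycerate mutase, which moves the phosphate between carbons. Its only site, chr10:99186027-99186064 (plus strand), contained 17 reads, the fewest of any of the 8 genes. The summit was 10 reads at 33 and 34 nt of a 90-nt cluster, of which 43.3% was listed. RefSeq names 13 pseudogenes for PGAM1.

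ENO1 encodes enolase 1, which forms phosphoenolpyruvate. Its first site, chr1:8938639-8938779 (minus strand), contained 64 reads with a summit of 21, and reached to 11 nt from the 5' end of the span. That summit stood in rank 12 of 3566, tied among 8 sites, and its 44.8 reads per 100 nt stood in rank 6 by density. By number of reads the site stood lower, in rank 38, tied among 2 sites, where the largest site of the list held 172. In the 5' to 3' direction the profile had a peak of 15 reads at 52 nt, a dip to 9 at 73 nt and the higher peak of 21 reads at 98 nt. The listed interval fell short of the 143-nt cluster by 2 nt, the usual difference being 1 nt. The second site, chr1:8934968-8934976, contained 39 reads with a summit of 19. Only 9 nt of its 102-nt cluster were listed, so the place of its summit in the genome is unknown. Both ENO1 sites had a higher summit than any site of the other 7 genes, the next being 18 in the first site of LDHA.

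PKM encodes pyruvate kinase M, the last ATP-yielding step, and its transcripts differ by a pair of mutually exclusive exons. Its first site, chr15:72523452-72523582 (minus strand), contained 26 reads with a summit of 11. It was listed in full, and in the 5' to 3' direction its profile rose to a summit at 103 nt of 132 nt, 260 nt from the 5' end of the span. The second site, chr15:72511439-72511447, lay 12293 nt from that end and held 15 reads with a summit of 8. Like the second ENO1 site it was listed over 9 nt only, here of a cluster of 111 nt. The first site thus held 63.4% of the PKM reads, close to the 62.1% that the first site of ENO1 held of its gene's.

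LDHA encodes lactate dehydrogenase A, which turns pyruvate into lactate and restores NAD. Its first site, chr11:18416108-18416183 (plus strand), contained 23 reads that stacked into 1 sharp peak of 18 at 41 nt of a 77-nt cluster. It was listed in full, with the summit 218 nt from the 5' end of the span. The second site, chr11:18418366-18418389, contained 49 reads over 141 nt with a summit of 17 at 31 nt. A further peak of 13 reads stood at 118 nt, beyond a dip to 4. The later site therefore held more reads than the first, with a summit lower by only 1 read.

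Among the 5 genes with more than 1 site, the first site held the most reads in ENO1 and PKM, and a later site did so in GAPDH, LDHA and ALDOA. No common order of first and later sites was seen.

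**Figure D4:**
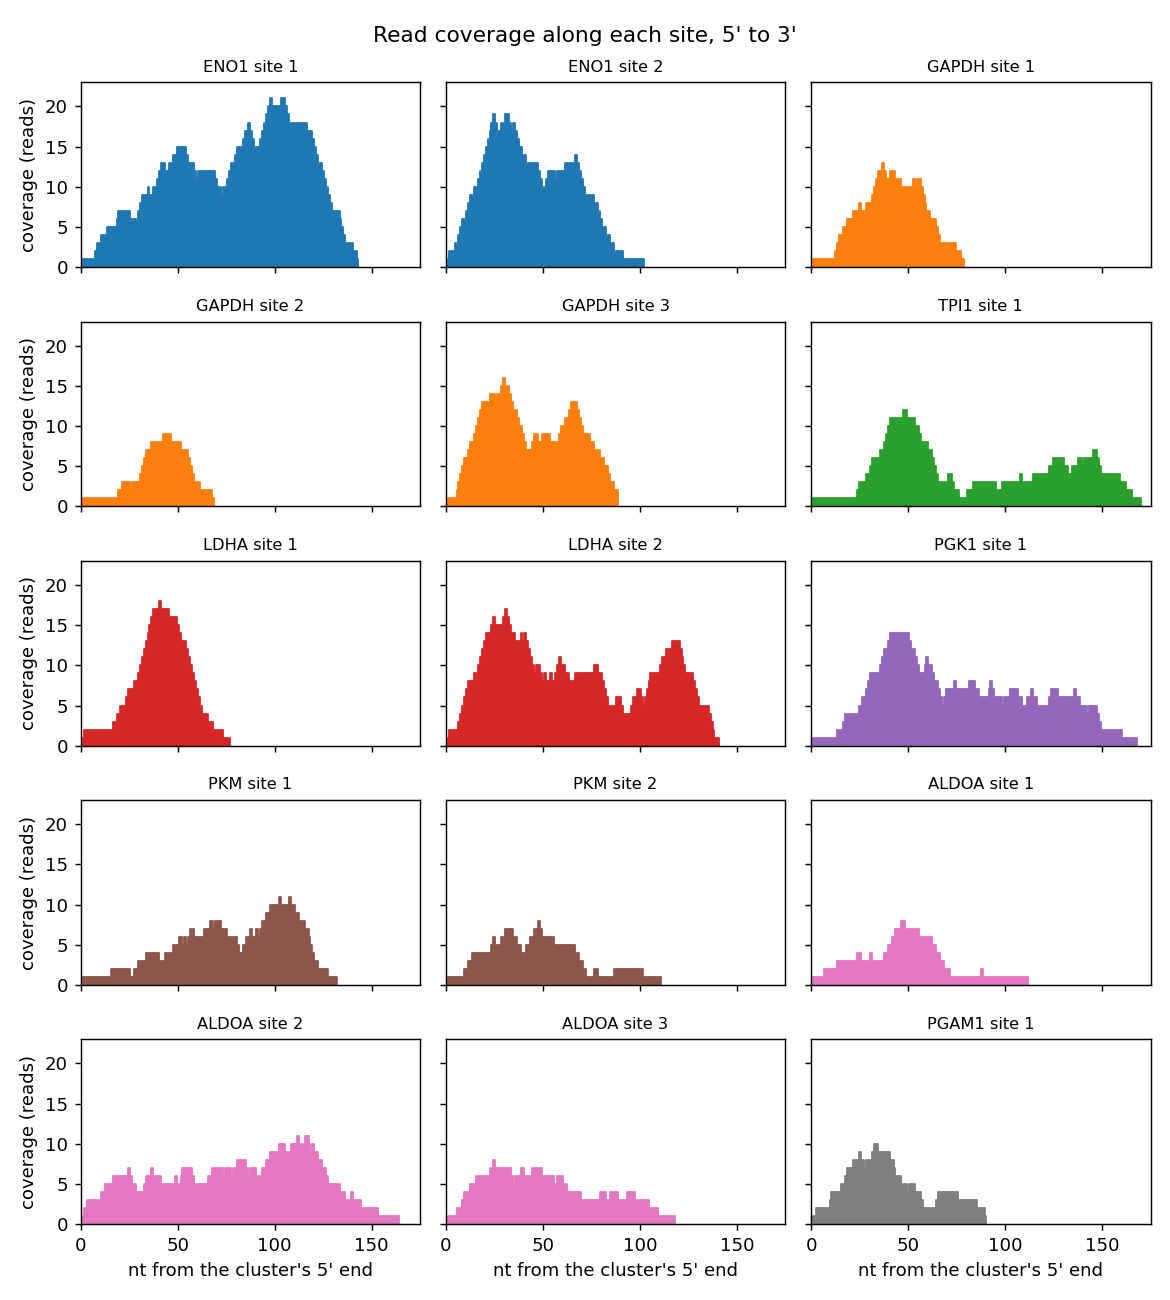
Read coverage along each of the 15 clusters, in reads against nt from the cluster's 5' end, all on the same axes and coloured by gene. Peaks of similar height stand apart in the third GAPDH site and the second LDHA site, the first LDHA site has 1 narrow peak, and the TPI1 cluster thins to 1 read at 77 nt.

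The shape of coverage differed among the sites. A second peak at least a read length (25 nt) from the main one, standing out by 3 or more reads, was present in 8 of 15 sites, where 17.9% of all primary sites have one. Among sites with at least 12 reads it was present in 8 of 14 glycolytic sites and in 60.9% of all sites, so for their number of reads these sites were near the background. Sites with 1 peak were the first and second of GAPDH, the first of LDHA, the second of PKM, the first and the third of ALDOA, and that of PGAM1. Every read start in the 15 sites held exactly 1 read, so the reads counted in them equal distinct start positions. Coverage by 25-nt reads is then capped at 25, and high summits such as the 21 and 19 of ENO1 stand close to that limit. How many of all primary sites have only such starts was not counted. The highest summit among all primary sites was 24, also below 25, so this need not be particular to these genes. The densest 10 nt of read 5' ends held 9 starts in both ENO1 sites and in the first LDHA site, and 4 to 8 in the other 12 sites.

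Many of the sites were listed over less than their cluster. This was so in 10 of 15 sites, where it is so in 41.4% of all primary sites, and each of the 8 genes had at least 1 such site. Shortening was more frequent among large sites throughout the list. Among sites with at least 12 reads it affected 9 of 14 glycolytic sites and 64.3% of all sites. The shortest listed stretches, 9 nt, were the second sites of ENO1 and PKM, both far downstream of the first. The second site of LDHA and the third of ALDOA were listed over 24 and 21 nt of clusters of 141 and 118 nt.

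Close copies of these genes in the genome can take or lend 25-nt reads. RefSeq names 101 pseudogenes for the 8 genes. The whole profile of a glycolytic site recurred at another listed locus in 0 of 15 sites. A 40-nt stretch with 10 to 30 read starts could be searched in 14 of the 15, and 0 of them shared it with another listed locus. How often profiles or stretches recur over the whole list was not counted, so these counts of 0 say little about the placement of reads. Only copies that are themselves listed could be found this way, and how reads with several matches were treated is not given in the sources used here.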

How the data were processed

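The authors deposited 1 list of intervals on hg19 for eIF3a, with a strand, a coverage profile and a signal. The signal in the deposited list is the peak coverage of a cluster, counted in reads and not normalized, as the values themselves show. Reads were aligned to hg19 with Bowtie, per the submitters' processing notes. How clusters were called and filtered, duplicates treated and replicates pooled is not given in the sources used here. Library depth is unknown.

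Entries of the same profile at 1 place were counted as 1 site. Profiles were split into 25-nt reads, which was exact for 3113 of 3113 distinct profiles with 25 nt and for 0 with 23, 24, 26 or 27 nt. The split also recovered 3113 of 3113 simulated profiles. These were built from 25-nt reads, so their recovery checks the code only and says nothing about the deposited profiles. In 7 pairs of copies on opposite strands the profiles were reversed and in 0 the same (at least 8 reads and 61 nt), so profiles were read left to right along the genome and turned for minus-strand genes. Coordinates are printed counting from 1, with an uncertainty of 1 nt. A site belonged to a gene if its listed interval overlapped the span by at least 1 nt on the gene's strand. All sites of the 8 genes are named, whatever their values; members and lists were chosen with earlier results of these data known. No test was run. Other glycolytic genes were not counted, since no hg19 annotation was used here. The 8 symbols all matched RefSeq (GRCh38.p14). Intervals cover counting error only, and reads need not be independent molecules. Python 3.11.15, numpy 2.4.6, scipy 1.17.1 and matplotlib 3.10.9 were used.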

Additional observations from a re-analysis of the deposited data

How the results depend on the processing

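The 15 sites, 8 genes with a site, 435 reads and median summit of 12 were the same with intervals required to lie wholly within the span, spans widened by 1 kb, both strands, a score at or above the list's median of 5, and merging of sites at most 50 nt apart. None of these alternatives could change these values. Every listed interval lay within its span, and the sites of a gene were more than 50 nt apart. No site lay on the opposite strand or within 10 kb outside a span, and the lowest summit of the 15 sites was 8. Counting every deposited entry gave 20 sites, 518 reads and a median of 11. An alternative chosen after seeing the data, keeping only sites listed in full, left 5 sites in 4 genes with 119 reads and a median of 11, fewer by construction. The share of sites in the first 1000 nt of the span was 53.3% (95% Wilson interval 30.1 to 75.2), and 60% among the 5 sites listed in full. The interval takes the sites as independent, but some share a gene and the genes were chosen, so it is only a rough guide. No site began between 500 and 2000 nt, so the share with either limit had to be the same. The share in other genes was not counted. No replicate could be left out. No paired analysis was possible because no entry of the list names a replicate, and whether both are in it is unknown. The few reads per site, 11 to 64 in these genes, set the precision.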
